A study of Mus musculus with 12 samples.

Results

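Complement and clotting factors are plasma proteins that the liver secretes, and 44 of their genes were followed in hepatocytes of low and high fat content. They were chosen by gene name as the plasma factors, proteases and inhibitors of complement, clotting and fibrinolysis, and the C1q genes were left out by that choice. All 44 were among the 52636 genes of the table, and all 44 were among the 16563 genes that passed the filter on low values and were tested. They comprised 8 genes of complement initiation, 3 of C3 and the alternative pathway, 5 of the terminal pathway and 4 complement regulators. The clotting side comprised 5 contact system genes, 4 clotting proteases, 3 cofactors, 4 genes of fibrinogen and factor XIII, 5 anticoagulants and 3 genes of fibrinolysis.

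RNA sequencing libraries of polyA RNA came from 6 mice with steatotic livers, 3 wild type (WT1, WT5 and WT6) and 3 with a knockout of Ptprk, a receptor-type protein tyrosine phosphatase (KO2, KO4 and KO6). From every mouse a low-fat library and also a high-fat library were made, so that each genotype (WT or KO) has 3 libraries of either kind, 4 groups in all. Low-fat and high-fat name the lipid content of the hepatocytes, which were parted by a Percoll gradient and differential centrifugation, steps also meant to remove dead cells and other liver cell types. All groups thus share the steatotic liver and the separation, and no group comes from a lean liver. The diet, age and sex of the mice, the knockout allele and the cells that lack the gene are not given in the sources used here.

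As background, complement is started by C1 on antibody (classical pathway), by mannose-binding lectins on sugars (lectin pathway) or by C3 itself (alternative pathway). All routes cleave C3 and end in the membrane attack complex of C5b, C6, C7, C8 and C9. Clotting proteases activate each other on membranes until thrombin turns fibrinogen into fibrin, which plasmin dissolves. Hepatocytes make nearly all of these proteins, and the inflammatory cytokine IL-6 raises several of them as acute phase proteins. Properdin (Cfp), factor VIII (F8) and von Willebrand factor (Vwf) are known as products of leukocytes or endothelial cells rather than hepatocytes.

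Estimated depth was 15.1 to 25.0 M (mega) reads a library, and values are reads scaled to 20 M. Ptprk was measured at 2758, 2883 and 2724 in WT low-fat, 2174, 2578 and 2469 in WT high-fat, 1117, 1364 and 1333 in KO low-fat, and 1217, 1204 and 1179 in KO high-fat libraries. It was lower in every KO library than in any WT library, by a log2 fold change of -1.13 (SE 0.092, adjusted p = 0.00098, limma) in low-fat and -0.98 (SE 0.092, adjusted p = 0.0045) in high-fat hepatocytes. Without mice WT1 and KO2 these adjusted p-values were 0.061 and 0.08. Whether the counted reads lie in the deleted part is not given. Genes named mt- took 1.59% to 2.15% of reads in low-fat and 2.18% to 4.24% in high-fat libraries. Summed nuclear-retained RNAs were highest in the high-fat libraries of WT1 and KO2, at 154343 and 152812, against 27592 to 124202 in the other libraries.

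The 44 genes together took 3.33% to 4.22% of all reads of a library. The share was 4.03% ± 0.128 (SD, n = 3) in WT low-fat, 3.63% ± 0.193 in WT high-fat, 4.09% ± 0.115 in KO low-fat and 3.73% ± 0.35 in KO high-fat libraries. Levels per exon length, as mean reads per 20 M and kb over the 12 libraries, spanned the range from 26240 for C3, the component on which all pathways meet, to 3.49 for Vwf, the platelet adhesion factor. C3 was followed by the fibrinogen chains Fgg at 21800 and Fga at 20600, the adhesion protein vitronectin (Vtn) at 18630, the fibrinogen chain Fgb at 12900 and plasminogen (Plg), the plasmin precursor, at 12850. At the lower end stood Masp1, a lectin pathway protease, at 279.6, then Cfp at 97.6 and F8 at 40.9. By reads not divided by length, the 5 highest means were 134900 for C3, 61990 for Fga, 49160 for Fgb, 47700 for Plg and 47570 for C4b, the C4 gene of the classical and lectin pathways. C4b, C1ra, C1s1 and the kininogens Kng1 and Kng2 have near-identical copies in the mouse genome, so that their values depend on how the authors assigned shared reads. In the annotation, C2 and Cfb both overlap Gm20547 on the same strand. Fundc2 overlaps F8 on the opposite strand, where reads cannot be told apart unless strand was used in counting. The same holds for others of the 44 genes, among them C8g (with Fbxw5), C2 (Zbtb12), Masp2 (Tardbp), Plg (Slc22a3) and Serpind1 (Pi4ka).

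**Figure D1:**
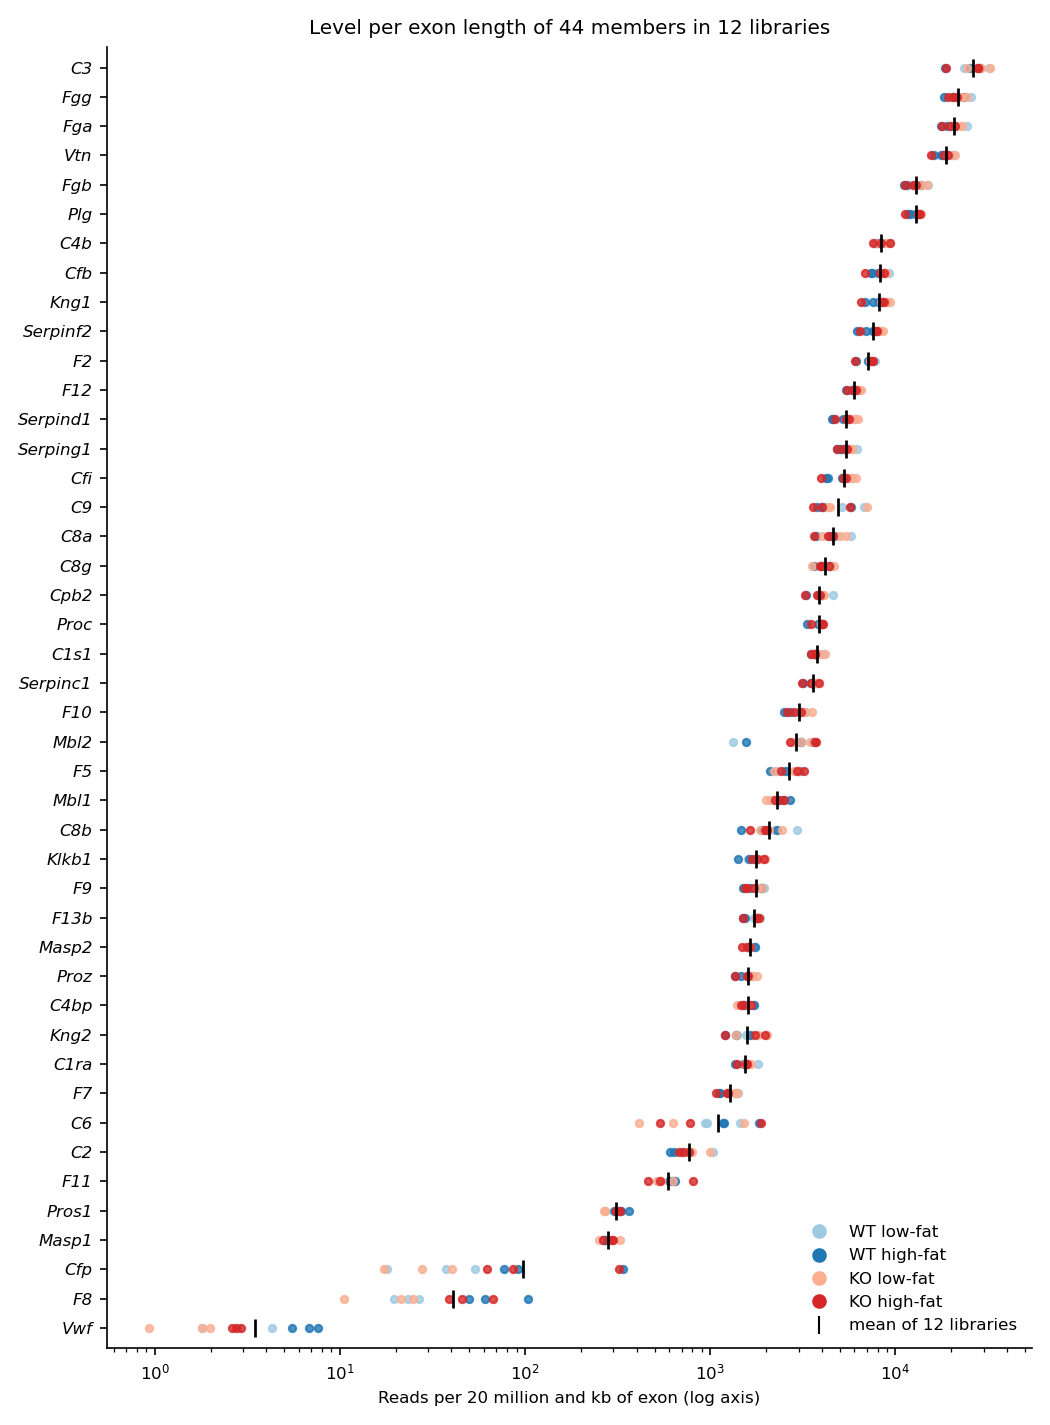
Level per exon length of the 44 genes in 12 libraries (x axis, reads per 20 M and kb of exon, log axis; points, libraries coloured by group; black bars, means). C3 is highest at 26240 and Vwf lowest at 3.49, and the points of Cfp, F8, Vwf, C6 and Mbl2 spread furthest around their means.

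Fibrinogen is assembled from 3 chains encoded by neighbouring genes on chromosome 3, and the sequences before these genes are shown. A link between these sequences and the levels of the transcripts was not tested. The sequences lie upstream of the RefSeq gene starts (GRCm38.p6) and are written 5' to 3' on the strand of each gene. Capitals mark matches, on either strand, to GTTAAT (a core of the site of the hepatocyte factor HNF1), CTGGGAA (an IL-6 response element), TGTTTAC (a FOXA motif) and TTCNNNGAA (a STAT motif). For Fga the bases inside the GENCODE gene are left out, and a stretch of 30 bases there that holds its HNF1 core has a line of its own.
Fga, chr3:83025903-83026075, plus strand: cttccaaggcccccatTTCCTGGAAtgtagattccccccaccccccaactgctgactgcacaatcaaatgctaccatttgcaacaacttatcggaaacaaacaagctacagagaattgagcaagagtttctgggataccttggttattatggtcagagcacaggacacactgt
Fga HNF1 core, chr3:83026098-83026127, plus strand: ccaagggtgatgATTAACctcctgccggtt
Fgb, chr3:83049864-83050113, minus strand: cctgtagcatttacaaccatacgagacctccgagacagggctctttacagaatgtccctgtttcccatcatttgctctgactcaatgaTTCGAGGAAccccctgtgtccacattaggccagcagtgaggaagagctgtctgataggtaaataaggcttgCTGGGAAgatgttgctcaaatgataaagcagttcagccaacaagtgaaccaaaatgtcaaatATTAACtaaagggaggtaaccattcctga
Fgg, chr3:83007474-83007723, plus strand: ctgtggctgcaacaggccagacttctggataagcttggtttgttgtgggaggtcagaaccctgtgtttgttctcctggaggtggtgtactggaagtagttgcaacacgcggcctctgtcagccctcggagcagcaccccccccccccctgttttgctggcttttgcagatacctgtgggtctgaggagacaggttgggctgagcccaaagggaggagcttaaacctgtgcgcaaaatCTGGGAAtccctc
In the 250 bases before the start, Fga held 1 HNF1 core and 1 STAT match, Fgb held 1 match each for HNF1, IL-6 and STAT, and Fgg held 1 IL-6 match. RefSeq windows, 36 in all, were matched for 34 of the 44 genes. A gene counted where any of its windows held the motif, while the share over all windows counts each window singly. The HNF1 core was in 10 of the 34, against 6.43% of all 32851 windows of that length, the IL-6 element in 5 against 9.1%, the STAT motif in 6 against 7.02% and the FOXA motif in 2 against 3.17%. These are letter matches only, and no binding was measured.

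Fga was measured at 73569, 59815 and 62642 in WT low-fat libraries (mice WT1, WT5 and WT6 in this order throughout), and at 63043, 53031 and 56982 in WT high-fat libraries. In KO mice (KO2, KO4 and KO6 in this order throughout) it was 67647, 68630 and 61820 in low-fat and 53841, 59507 and 63379 in high-fat libraries. The high-fat value was below the low-fat value of the same mouse in WT1, WT5, WT6, KO2 and KO4, and the groups overlapped. Per exon length, the ratio of Fgb to Fgg stayed between 0.568 and 0.609 in the 12 libraries, that of Fga to Fgg between 0.889 and 0.981, and that of Fga to Fgb between 1.53 and 1.64. The proportions of the chains thus varied little while the level of Fga ranged from 53031 to 73569. Such a narrow range was not seen for the 3 chains of C8, a membrane attack component: C8a to C8b ranged from 1.77 to 2.71 and C8g to C8b from 1.5 to 2.75. The ratio of Kng1 to Kng2 ranged from 4.25 to 6.02. Pairs of unrelated genes with steady levels were not compared, so the narrow range is not shown to be particular to fibrinogen. The ratio of the mannose-binding lectins Mbl2 to Mbl1 ranged from 0.633 to 1.61, its lowest values being the 2 libraries of mouse WT1.

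High-fat was first compared with low-fat hepatocytes over both genotypes. Of the 44 genes, 36 had a lower mean in high-fat libraries, as did 9703 of all 16563 genes tested. The median log2 fold change was -0.19, against -0.042 over all genes tested. A gene was called where limma's adjusted p over all 16563 genes was under 0.05. Cfp, F8 and Vwf rose (3 of 44, where 4.99% of all genes were called higher) and F7, the protease that starts clotting with tissue factor, fell (1 of 44, where 0.773% were called lower). The low-fat and high-fat libraries of a mouse are paired by the labels, and with the mouse as a block 4 genes were called higher (Cfp, F8, Vwf and C6; background 6.65%) and 6 lower (C2, C8a, C8b, C9, Cfi and F7; background 3.8%). Without mice WT1 and KO2 only F8 was called, and the median was -0.10. Fewer reads of a gene in a bulk library can come from fewer cells of a type or from less RNA per cell, which cannot be told apart here.

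By direction alone, 23 genes were lower in the high-fat library in 6 of 6 mice, as were 11.7% of all genes tested. C6, Cfp, F8 and Vwf were higher in 6 of 6 mice, as were 9.74% of all genes. The size of the differences differed between mice: WT1 and KO2 had the lowest value for most genes, as for Cfi at -0.59 and -0.72, against -0.15 in KO6 and -0.18 in KO4 on the log2 scale. The same 2 mice had the highest high-fat sums of Kupffer cell markers, 12539 and 10820 against 2290 to 2594 in the other high-fat libraries, and the part of these cells in the differences was not tested.

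**Figure D2:**
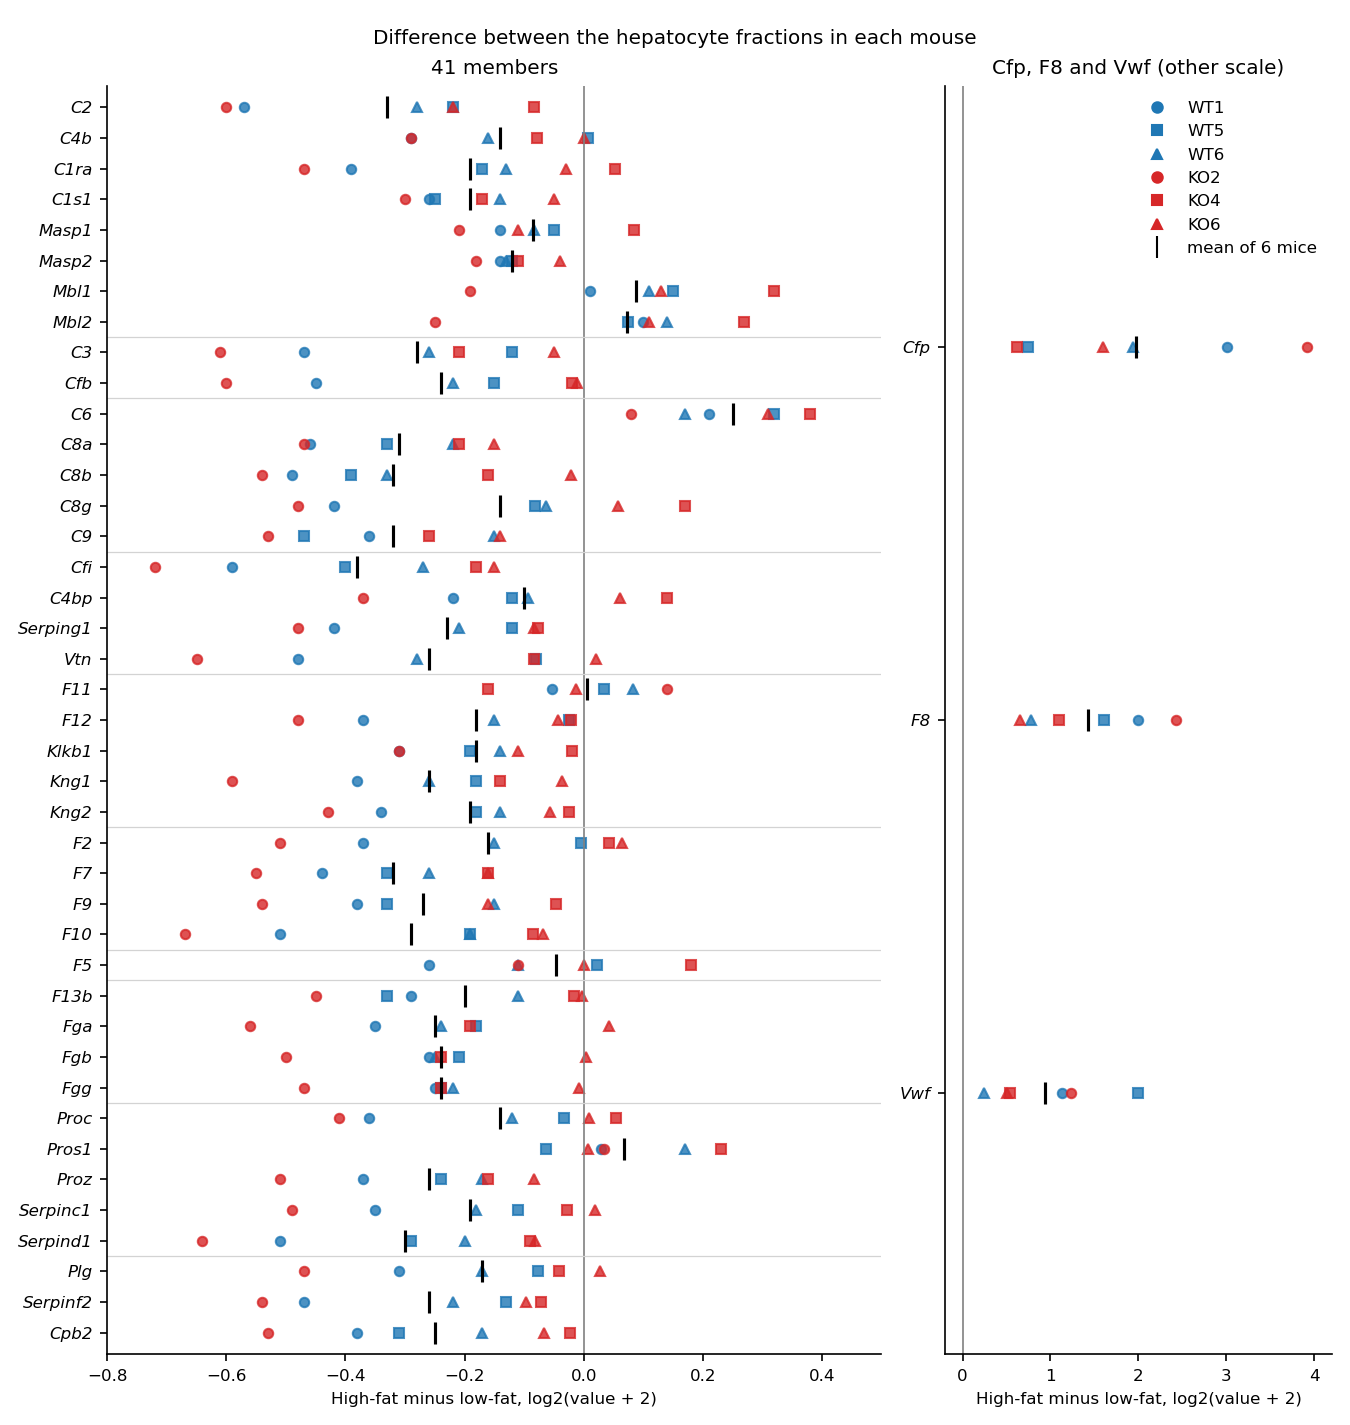
Difference between the high-fat and low-fat library of each mouse (x axis, log2(value + 2) after rescaling; points, 6 mice; black bars, means). Genes are ordered by role with grey lines between roles, and Cfp, F8 and Vwf have a panel with a wider scale. Most genes lie left of 0, with WT1 and KO2 furthest left, while C6, Cfp, F8 and Vwf lie right of 0 in all 6 mice.

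Among the initiators of complement, no gene was called without the block, and a correlation between libraries of the same mouse called C2 (adjusted p = 0.041, limma) and C1s1 (adjusted p = 0.035). C2, the protease of the classical and lectin C3 convertase, was measured at 3983, 2716 and 2802 in WT low-fat and 2945, 2346 and 2477 in WT high-fat libraries. In KO mice it was 3869, 2929 and 3074 in low-fat and 2976, 2741 and 2622 in high-fat libraries. Every mouse had less in its high-fat library, and the deposited values of the fractions overlapped in both genotypes. The log2 fold change was -0.33 (SE 0.12), with adjusted p = 0.15 without and 0.034 with the block in limma. Mbl1 and Mbl2 were the initiators with a higher mean in high-fat cells, by 0.09 (SE 0.079) and 0.07 (SE 0.25), and were not called. The other 6 initiators, among them C1ra and C1s1 (the proteases of C1), Masp1, Masp2 and C4b, had lower means, down to -0.33 for C2, and the median of all 8 was -0.13.

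Properdin, which stabilizes the C3 convertase of the alternative pathway, had the largest difference between fractions of the 44 genes. Cfp (ENSMUSG00000001128, chromosome X, 20925454 to 20931555, minus strand) was measured at 65, 93 and 31 in WT low-fat and 588, 158 and 133 in WT high-fat libraries. In KO mice it was 30, 70 and 48 in low-fat and 561, 108 and 149 in high-fat libraries. All 6 high-fat libraries were above all 6 low-fat libraries, with WT1 and KO2 far above the rest. The log2 fold change was 1.97 (SE 0.45, adjusted p = 0.025, limma), a fold of 3.92. Without these 2 mice it was 1.23 (adjusted p = 0.11), and the call was also lost without the low-fat library of WT1, WT6, KO2 or KO6. C3 ranged from 95607 in WT high-fat (WT1) to 166467 in KO low-fat (KO4) and was lower in high-fat cells in 6 of 6 mice, by -0.28 (SE 0.18, adjusted p = 0.43). Cfb, the protease of the alternative convertase, ranged from 19413 to 26002, with a fold change of -0.24.

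In the terminal pathway C6 differed in direction from its partners. It was measured at 5130, 3323 and 3433 in WT low-fat and 6505, 4192 and 4146 in WT high-fat libraries, and at 5415, 1468 and 2243 in KO low-fat and 6691, 1901 and 2764 in KO high-fat libraries. Each mouse had more C6 in its high-fat library, while the groups overlapped widely. The log2 fold change was 0.25, with adjusted p = 0.75 (SE 0.35) without the block and 0.032 (SE 0.058) with it in limma. Without the block the C6 value moved with single libraries, from 0.012 without the high-fat library of KO2 to 0.525 without its low-fat library. Within KO mice it ran from -0.212 to 0.814 and was below 0 without the high-fat library of KO2 or the low-fat library of KO4. C9, the pore-forming subunit, was measured at 17192, 13221 and 10586 in WT low-fat, 14662, 9644 and 10223 in WT high-fat, 17948, 10996 and 11390 in KO low-fat and 14559, 9118 and 10308 in KO high-fat libraries. Every mouse had less C9 in its high-fat library, by -0.32 on average (SE 0.18), with adjusted p = 0.36 without and 0.035 with the block. The ratio of C9 to C6 per exon length was 4.83 ± 0.639 (SD, n = 3) in WT low-fat and 3.26 ± 0.155 in WT high-fat, and 7.37 ± 2.92 in KO low-fat and 4.96 ± 1.83 in KO high-fat libraries.

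The chains of C8 differed in whether they were called with the block. C8a, with means of 18410 ± 2280 (SD, n = 3) in low-fat and 15440 ± 1730 in high-fat libraries of WT mice and of 17540 ± 2640 and 15150 ± 1830 in those of KO mice, was lower in 6 of 6 high-fat libraries by -0.31 (SE 0.11, adjusted p = 0.15, with the block 0.037, limma). C8b, with means of 6009 ± 1370, 4816 ± 1070, 5394 ± 750 and 4790 ± 525 in the same order, was also lower in 6 of 6, by -0.32 (SE 0.15, adjusted p = 0.27, with the block 0.030). C8g had means of 6470 ± 151, 6028 ± 600, 6180 ± 826 and 6083 ± 376. It was lower in 4 mice and higher in KO4 and KO6 (-0.14, SE 0.10, with the block adjusted p = 0.37), so that the fall of C8a and C8b with the block was not called for C8g; the difference between the chains was not tested.

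Among complement regulators, Cfi, the protease that cuts C3b and C4b, had the lowest fold change of the 44 genes. It was measured at 12872, 12522 and 12820 in WT low-fat, 9364, 9577 and 11403 in WT high-fat, 12363, 13631 and 12944 in KO low-fat and 8771, 11950 and 11610 in KO high-fat libraries. All 6 high-fat libraries were below all 6 low-fat libraries. The log2 fold change was -0.38 (SE 0.11), with adjusted p = 0.064 without and 0.033 with the block in limma. The other 3 regulators, the C4b-binding protein C4bp, the C1 inhibitor Serping1 and Vtn, had fold changes of -0.10, -0.23 and -0.26 and were not called, and the median of the 4 was -0.25.

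On the clotting side F7 (ENSMUSG00000031443, chromosome 8, 13026034 to 13035809, plus strand) was measured at 2552, 2620 and 2599 in WT low-fat and 2065, 2099 and 2332 in WT high-fat libraries. In KO mice it was 2516, 2571 and 2582 in low-fat and 2006, 2278 and 2305 in high-fat libraries. The low-fat libraries lay within a narrow band, and all 6 high-fat libraries were below it. F7 fell by 19.7% (log2 fold change -0.32, SE 0.075, adjusted p = 0.029, limma). The call was lost without mice WT1 and KO2 (-0.23, adjusted p = 0.33), with the stricter filter, and without the low-fat library of WT1, WT6, KO2 or KO6 or the high-fat library of WT1, WT5 or KO2. The vitamin K-dependent proteases F9 and F10 and prothrombin (F2) had lower means too, by -0.27, -0.29 and -0.16, and were not called with or without the block. A correlation between libraries of the same mouse, fitted in place of the block, called F9 (adjusted p = 0.030) and F10 (adjusted p = 0.048). The contact system, which starts clotting on surfaces, had a median of -0.18 over its 5 genes with none called. Kng1, which carries bradykinin, was at -0.26 (SE 0.11, adjusted p = 0.23) and Kng2 at -0.19 (SE 0.15), both lower in 6 of 6 mice.

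Factor VIII, the cofactor of F9 that is missing in haemophilia A, was called under all 21 alternative settings as well. F8 (ENSMUSG00000031196, chromosome X, 75172715 to 75382615, minus strand) was measured at 231, 194 and 266 in WT low-fat and 1021, 599 and 490 in WT high-fat libraries, and at 104, 211 and 245 in KO low-fat and 664, 452 and 384 in KO high-fat libraries. The highest low-fat library, WT6 at 266, was below the lowest high-fat library, KO6 at 384. F8 rose 2.69-fold (log2 fold change 1.43, SE 0.22, adjusted p = 0.0044, limma). Without mice WT1 and KO2 the log2 fold change was 1.03 (adjusted p = 0.015). Lman1, the cargo receptor that carries F5 and F8 out of the endoplasmic reticulum, was at -0.31 (adjusted p = 0.061, with the block 0.023).

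Vwf (ENSMUSG00000001930, chromosome 6, 125546774 to 125686679, plus strand), which carries factor VIII in plasma, was measured at 45, 29 and 69 in WT low-fat, 110, 122 and 88 in WT high-fat, 15, 32 and 29 in KO low-fat and 44, 47 and 42 in KO high-fat libraries. The fractions did not overlap within a genotype, but KO high-fat values lay within the WT low-fat range. Vwf rose 1.92-fold (log2 fold change 0.94, SE 0.23, adjusted p = 0.035, limma). Its levels are low, and the call was lost in 11 of 20 alternatives: without a filter, without mice WT1 and KO2 (0.82, adjusted p = 0.31), without any single WT low-fat or WT high-fat library other than those of WT6, and without any KO library other than the low-fat one of KO4. F5, the cofactor of factor Xa and a hepatocyte product, ranged from 15623 to 23748 and was at -0.05 (SE 0.14, adjusted p = 0.89).

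**Figure D3:**
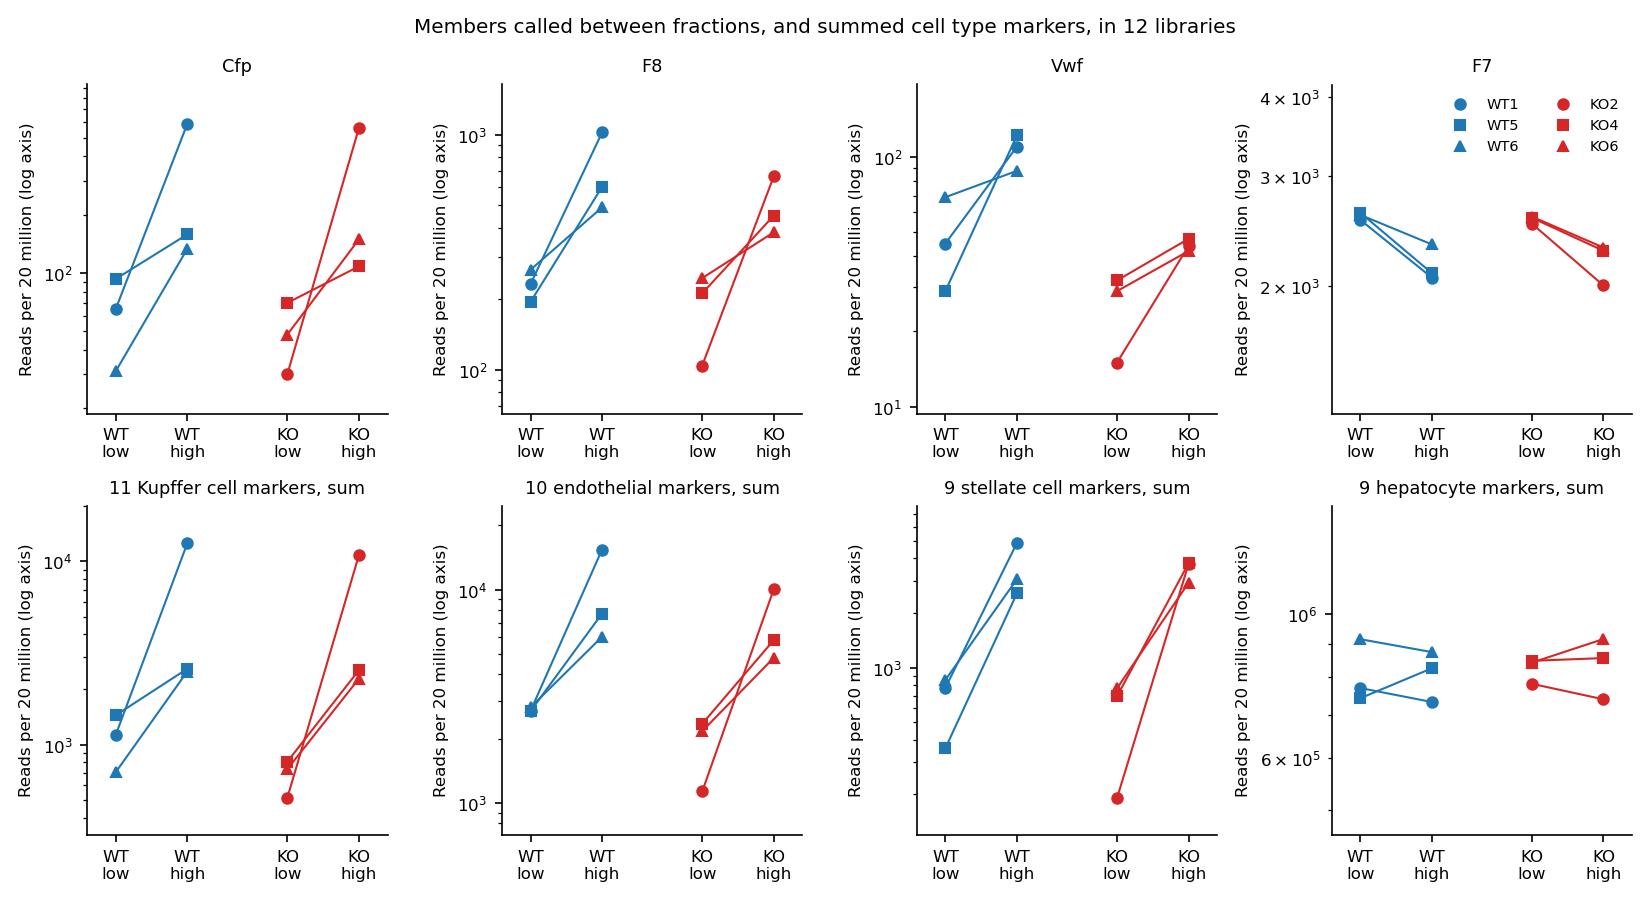
Reads per 20 M (y axes, log) of Cfp, F8, Vwf and F7 (top) and summed markers of 4 cell types (bottom) in 12 libraries; lines join the libraries of a mouse. Cfp, F8, Vwf and the summed Kupffer, endothelial and stellate cell markers are higher in the high-fat library of each mouse, F7 is lower in each, and the hepatocyte sum goes either way.

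Markers of Kupffer, sinusoidal endothelial and stellate cells were also higher in high-fat libraries. All 11 Kupffer cell markers had higher means, and 9 were called higher (median log2 fold change 2.24). Their summed level was 707 to 1447 in WT low-fat, 2507 to 12539 in WT high-fat, 514 to 808 in KO low-fat and 2290 to 10820 in KO high-fat libraries. Of 10 sinusoidal endothelial markers all 10 rose (median 1.80), with sums of 2689 to 2799, 6007 to 15396, 1130 to 2345 and 4785 to 10020 in the same order. Of 9 stellate cell markers all 9 rose (median 2.53), with sums of 359 to 855, 2564 to 4868, 191 to 769 and 2937 to 3769. No marker of these 3 lists was at 0 in all libraries. Of 9 hepatocyte markers 7 had lower and 2 higher means (median -0.15), with sums between 732494 and 914815. Without the block 1 was called higher (Cyp2e1) and none lower, while with it Hnf4a was called lower (adjusted p = 0.042, limma). Only 1 of 5 platelet, 1 of 5 neutrophil and 2 of 6 lymphocyte and 2 of 6 cholangiocyte markers passed the filter, and none was called without the block. With the block the cholangiocyte marker Sox9 was called lower (-0.61, adjusted p = 0.0031, without the block 0.11), as it was in each genotype alone. Without mice WT1 and KO2 the calls of Csf1r and Marco (Kupffer cell), Des (stellate cell) and Cyp2e1 were lost. The part of these cells in the rise of Cfp, F8 and Vwf was not tested.

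The anticoagulants and the fibrinolysis genes held no called gene with or without the block, while the correlation between libraries of the same mouse called Serpind1 (adjusted p = 0.031, limma) and Proz (adjusted p = 0.034). Serpind1, the thrombin inhibitor heparin cofactor II, was measured at 13043, 12205 and 12265 in WT low-fat, 10006, 10026 and 11474 in WT high-fat, 13736, 13235 and 12510 in KO low-fat and 10301, 12338 and 11778 in KO high-fat libraries. Every mouse had less in its high-fat library, by -0.30 on average (SE 0.09, adjusted p = 0.081, with the block 0.071, limma). Antithrombin (Serpinc1) was at -0.19, protein C (Proc) at -0.14 and the protein Z gene Proz at -0.26, while protein S (Pros1) was at 0.07. Plg was at -0.17 (SE 0.10), with the plasmin inhibitor Serpinf2 at -0.26 and Cpb2, a carboxypeptidase that slows fibrinolysis, at -0.25. Fga was at -0.25 (SE 0.11, adjusted p = 0.27), Fgb at -0.24 (SE 0.11, adjusted p = 0.24) and Fgg at -0.24 (SE 0.10, adjusted p = 0.24).

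Within each genotype alone the same comparison called none of the 44 genes. In WT mice limma called 0.0% of all genes, and 1.02% with the block. In KO mice it called 0.894%, and 2.14% with the block. At an unadjusted p under 0.05, 11 of the 44 passed in WT mice (11.5% of all genes did) and 5 in KO mice (8.95% of all genes) without the block. With the block 18 passed in WT (19.2% of all genes) and 12 in KO mice (14.1%). The median of the 44 genes was -0.22 in WT and -0.17 in KO mice. Without WT1 and KO2 it was -0.17 in WT mice (-0.052 over all genes tested) and -0.042 in KO mice (-0.02 over all genes tested). F8 was at 1.46 (SE 0.32, adjusted p = 0.095) in WT and 1.39 (SE 0.32, adjusted p = 0.065) in KO mice, and Cfp at 1.90 (SE 0.64, adjusted p = 0.26) and 2.05 (SE 0.64, adjusted p = 0.20). The interaction of genotype and fraction called none of the 44 genes and 0.0% of all genes with limma, with or without the block. At an unadjusted p under 0.05 it held none of the 44 and 24 of all genes.

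Knockout was next compared with wild type in each fraction. None of the 44 genes was called in either fraction with limma, where Ptprk was the only gene called (0.00604% of genes), with or without the block. At an unadjusted p under 0.05 Vwf was the only one of the 44 in each fraction, where 1.64% of all genes passed in low-fat and 1.97% in high-fat hepatocytes. With replicate numbers as a block C6, Mbl2 and Vwf passed in low-fat (2.99% of all genes) and C6, Klkb1 and Vwf in high-fat hepatocytes (3.7%). In this comparison a replicate number joins a WT and a KO mouse that the labels do not otherwise link, so the block has no clear basis. The median log2 fold change was 0.02 in low-fat (26 of 44 higher) and 0.05 in high-fat hepatocytes (32 of 44 higher), against 0.001 and 0.0031 over all genes. Of all 16563 genes tested, 8340 were higher in low-fat and 8428 in high-fat hepatocytes. Without mice WT1 and KO2 the medians of the 44 genes were -0.0018 and 0.11.

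Vwf had the largest difference, -0.84 (SE 0.33, adjusted p = 1.0) in low-fat and -1.20 (SE 0.33, adjusted p = 1.0) in high-fat hepatocytes. Its 3 KO high-fat libraries, 42 to 47, lay below the 3 WT ones, 88 to 122, while the low-fat groups overlapped. Vwf was the only one of the 44 whose high-fat groups did not overlap, as was so for 4.92% of all genes. The 10 sinusoidal endothelial markers were also lower in KO in both fractions, with medians of -0.68 and -0.41 and none called, and their part was not tested. In low-fat hepatocytes only Klkb1, plasma prekallikrein, did not overlap, as was so for 5.44% of all genes. Its deposited values were 8419, 9590 and 9456 in WT and 9399, 10402 and 10201 in KO low-fat libraries, where KO2 lies below WT5 and WT6. Only after rescaling were all 3 KO libraries above the WT libraries, and the log2 fold change was 0.14 (SE 0.12, adjusted p = 1.0).

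**Figure D4:**
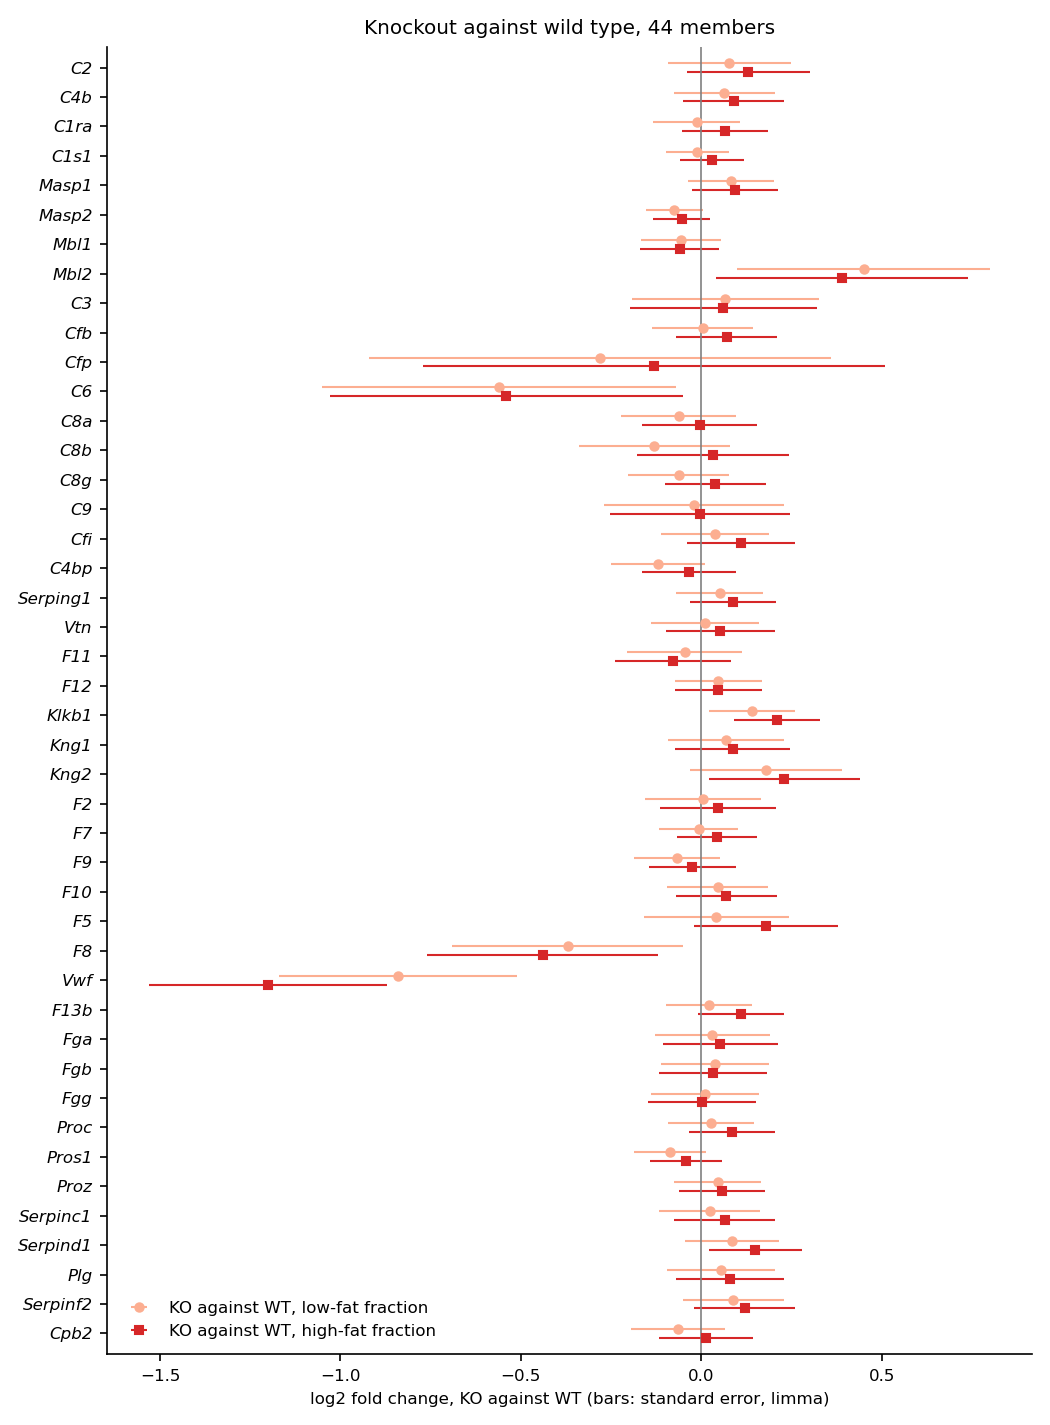
Log2 fold change of knockout against wild type for the 44 genes, ordered by role (points; bars, limma standard errors), in low-fat and high-fat hepatocytes. Most points lie within 0.25 of 0, and Vwf is lowest at -0.84 and -1.20 with no call.

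The levels of several genes differed widely between single mice. The range over all mice includes any difference between genotypes, so it cannot show which of these differences is larger. The mean of a mouse over its 2 libraries, after rescaling, differed by at least 2 times between the highest and the lowest mouse for C6, Cfp and Mbl2, 3 of the 43 genes with a mean of at least 100, where 8.58% of all such genes did. C6 reached 5999 in KO2 and 5722 in WT1, against 3622 in WT5, 3897 in WT6, 2580 in KO6 and 1671 in KO4, a ratio of 3.59. KO4 and KO6 had the 2 lowest values and KO2 the highest, so the KO mice lay on both sides of the WT mice. KO against WT was -0.56 (SE 0.49) in low-fat and -0.54 (SE 0.49) in high-fat hepatocytes, adjusted p = 1.0 in both. Without WT1 and KO2 it was -0.91 and -0.81 (adjusted p = 1.0 and 0.88), and over all alternatives it ran from -1.12 to -0.114 in low-fat and from -1.01 to -0.156 in high-fat hepatocytes. C9 showed the same pair of mice at the top, at 16380 in KO2 and 15810 in WT1 against 9969 to 11180 in the others, as did C2 at 3455 and 3448 against 2441 to 2934. WT1 and KO2 had the lowest C3, at 107500 and 111700 against 129600 to 161000. They also had the lowest F5 and Kng2.

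Mbl2, a lectin that binds sugars on microbes, was measured at 1447, 3155 and 3322 in WT low-fat, 1697, 3344 and 3924 in WT high-fat, 2991, 3363 and 3755 in KO low-fat and 2933, 4031 and 4021 in KO high-fat libraries. Mouse WT1 stood apart with the lowest value in both fractions. Its fold change of KO against WT was 0.45 (SE 0.35) in low-fat and 0.39 (SE 0.35) in high-fat hepatocytes, adjusted p = 1.0 in both, and 0.12 and 0.20 without WT1 and KO2. Mbl1 ranged only from 3152 to 4236. At the other end, F7 had a ratio of 1.12 between the highest and the lowest mouse. The median ratio was 1.22 for the 44 genes and 1.27 for all genes with means of 100 or more.

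**Figure D5:**
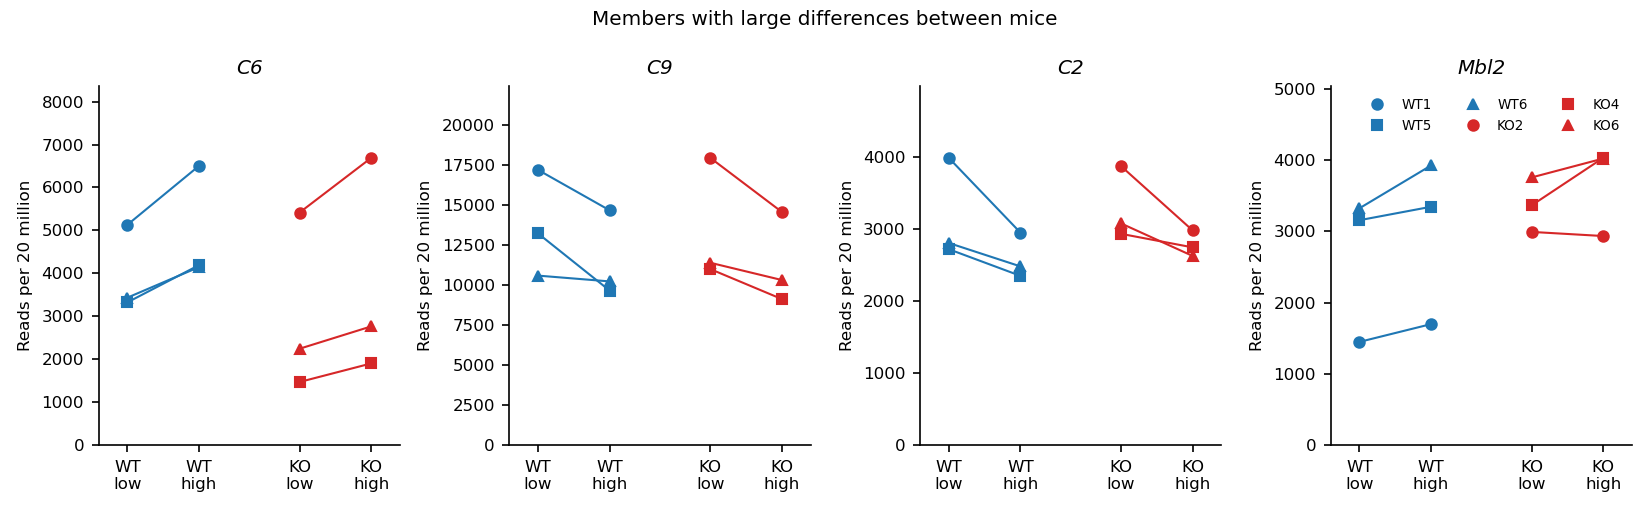
Reads per 20 M (y axes, from 0) of C6, C9, C2 and Mbl2 in 12 libraries; lines join the libraries of a mouse. WT1 and KO2 are highest for C6, C9 and C2 in each fraction, WT1 is lowest for Mbl2, and C6 is higher while C9 and C2 are lower in the high-fat library of each mouse.

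Other genes of both pathways were taken from lists that do not include the 44. Of 29 tested complement genes (receptors, C1q, ficolins, collectins and membrane regulators), 11 were called higher in high-fat hepatocytes and none lower, and the median was 0.84. The collectin Colec11 rose 6.39-fold (adjusted p = 0.0037, limma), the ficolin Fcna by a log2 fold change of 2.61 (adjusted p = 0.0077), C1qc by 2.50 (adjusted p = 0.0079) and the C3a receptor C3ar1 3.99-fold (adjusted p = 0.013). The 3 C1q genes and Vsig4 also stand in the Kupffer cell list. Of 29 tested clotting genes 4 were called higher and 1 lower, with a median of -0.12. Adamts13, the protease that cuts von Willebrand factor, rose by 2.65 (adjusted p = 0.0026), the urokinase gene Plau by 2.25 (adjusted p = 0.0049), Tfpi, the inhibitor of F7 with tissue factor, by 1.75 (adjusted p = 0.0079) and thrombomodulin (Thbd) by 1.49 (adjusted p = 0.017). Plau (0 to 11 in low-fat, 10 to 53 in high-fat libraries) and C3ar1 (3 to 11 and 20 to 85) passed the filter only through their high-fat libraries. Some of their low-fat values lie near or below the value of 3 reads, so that the calls of these genes carry little weight. Hgfac, a protease that activates hepatocyte growth factor, fell (-0.31, adjusted p = 0.031). With the block Cfd (1.46, adjusted p = 0.0072) was called higher and Serpina1e (-0.43, adjusted p = 0.027) and Lman1 lower as well. Without mice WT1 and KO2 the calls of C3ar1 (adjusted p = 0.07), C5ar2 (0.055), Thbd (0.10), Plau (0.058) and Hgfac (0.27) were lost. No gene of either list was called between KO and WT. The cell types that these lists share with the marker lists above were not tested as their source.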

How the data were processed

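The deposited values are a score: gene reads that the authors scaled to 20 M (mega) per library and rounded up, as read from the columns, each of which sums to 20.01 M. The submitters' processing notes list the genome build mm9. Aligner, counter, annotation, strand and filters are not given in the sources used here, so coordinates (GRCm38, GENCODE M21) serve to identify genes only. Depth was estimated from the steps between low values, and 3 reads equal a value of 2.4 to 3.98. This floor covers counting error only, since amplified reads are not independent molecules.

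Count models, planned for raw counts, were replaced because the values are scaled. Values were divided by factors from the trimmed mean of M values (0.928 to 1.085) and taken as log2(value + 2), a scale that understates changes of low genes. The filter asked for a value of 10 or more in 3 libraries or more. limma 3.58.1 (R 4.3.3) fitted 4 group means over 12 libraries with a trend, for 6 comparisons, with two-sided Benjamini-Hochberg adjusted p-values over 16563 genes and a threshold of 0.05. The fit was tested on simulated data. Levels per length used the merged exons of each gene. Replicates are different mice, and none agreed within sampling noise.

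Low-fat and high-fat libraries of a number come from 1 mouse, per the labels. Deviations from group means of these pairs correlated at 0.497, 0.471 and 0.581 in WT and 0.0405, -0.0116 and 0.458 in KO mice. WT and KO libraries of a number are different mice, with correlations of 0.252, 0.397 and 0.295 in low-fat and 0.49, -0.173 and 0.381 in high-fat libraries. A second fit had this number (the mouse, between fractions) as a block. Alternatives were other scalings, pseudocounts, filters and library subsets.

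Genes named are those called in any comparison, with or without the block, in each comparison the 3 largest rises and falls among genes with a mean of at least 100 and no overlap, the 5 highest means, and fixed sets of subunits and of genes known from other cells. The genes and lists were chosen with earlier results of these data known, and other named genes were chosen after their values were seen.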

Additional observations from a re-analysis of the deposited data

How the results depend on the processing

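With 3 mice a group, none of the alternatives reversed a called gene, and the median fold change of the 44 genes kept its direction in the fraction comparisons. Between high-fat and low-fat hepatocytes of both genotypes, 4 of the 44 were called. The count was 10 with the replicate block, 12 with a correlation between libraries of the same mouse (C1s1, C2, C8a, Cfi, F7, F9, F10, Proz and Serpind1 lower, Cfp, F8 and Vwf higher), 2 with the stricter filter (at least 100 in 3 libraries) and 1 without mice WT1 and KO2, an alternative added after seeing the data. Leaving out single libraries gave 1 to 7: 1 without the low-fat library of WT1, KO2 or KO6, 2 without the low-fat library of WT6 or the high-fat library of WT1, WT5 or KO2, and 7 without the high-fat library of WT6. F8 was called in each of these, with adjusted p-values of 0.0012 to 0.015 over 21 alternatives, Cfp in 16 of 21 (0.0079 to 0.11), F7 in 12 of 21 (0.007 to 0.33) and Vwf in 9 of 20 (up to 0.31). Within 1 genotype, the same-mouse correlation called 1 gene, F8, in WT and 1, F8, in KO mice. The block changed no other call of the 44 genes. In the knockout comparisons 0 genes of the 44 were called under any alternative. The causes were not tested. Between fractions 35 of the 44 had a lower mean with the scaling as deposited and 36 with the median of ratios. Vwf, at 15 to 122 reads per 20 M, is limited most by depth.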

Other observations

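Genes that govern the liver's output of plasma proteins were also read in both fractions. Of 18 cytokine signal and liver factor genes, 14 had a lower mean in high-fat hepatocytes (median log2 fold change -0.15), and 1 was called, Esr1, the oestrogen receptor, which fell (-0.80, SE 0.085, adjusted p = 0.0022, limma). With the mouse as a block, Stat3, the transcription factor of IL-6 signalling, was called as well (-0.30, adjusted p = 0.011, without the block 0.20), as were Hnf4a (-0.30, 0.042 and 0.19) and Foxa3 (-0.41, 0.025 and 0.21), both transcription factors of hepatocytes, and Onecut1 (-0.25, 0.025 and 0.87), another liver transcription factor. Without mice WT1 and KO2, Esr1 was still called (-0.69, adjusted p = 0.013). Cebpd, another factor of the acute phase, was at 0.45 (0.027 with and 0.49 without the block).

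Of 20 acute phase genes, 18 had a lower mean in high-fat hepatocytes, with a median of -0.16. Itih3, a hyaluronan-binding plasma protein, fell (-0.33, SE 0.081, adjusted p = 0.033, limma), a call lost without mice WT1 and KO2 (adjusted p = 0.24). With the block Serpina3n (-0.32, adjusted p = 0.034) was called lower and Orm3 (0.63, adjusted p = 0.022) higher as well. The serum amyloid gene Saa1 was at -0.05 (adjusted p = 0.96) and haptoglobin (Hp) at -0.16 (adjusted p = 0.48). None of these genes was called between knockout and wild type.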
